A study of Mus musculus with 17 samples.

Results

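The epidermal growth factor (EGF) family and its ErbB receptors were followed across mammary cancer cell lines from the primary tumor site and from 3 organs with metastases. The 10 members were 7 ligand genes (*Ereg*, *Areg*, *Hbegf*, *Tgfa*, *Btc*, *Epgn* and *Nrg1*) and 3 receptor genes (*Egfr*, *Erbb2* and *Erbb3*), chosen by symbol out of 55450 genes of the bulk RNA-seq table, of which 35849 carried a symbol. All 10 reached the filter on low values used for testing, a level of 1 TPM (a share of all transcripts, corrected for transcript length) in at least 2 libraries, and *Erbb4*, the remaining receptor gene, was listed at 0 in all 14 bulk libraries.

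The lines were derived from tumor-bearing organs of 10 to 12 week old FVB/NJ females of the MMTV-PyMT model, in which the mouse mammary tumor virus promoter drives the polyoma middle T oncogene in the mammary epithelium. Cells of the lung, bone marrow (BM), lymph node (LN) and mammary fat pad (MFP) were cultured for about 1 month and sorted as CD44low or CD44high cells with high EpCAM, an epithelial surface protein, and no CD44 status is given for MFP, the line of the primary tumor. Bulk RNA-seq covered 7 groups (MFP, and the CD44low and CD44high lines of LN, BM and lung) with 2 libraries each, which were separate clonal isolates from different mice. Single-cell RNA-seq covered 1 library each of LN CD44high (lymphH), lung CD44low (lungL) and lung CD44high (lungH) lines. The methods describe 2 replicates per single-cell sample, of which 1 table per line was analysed here, labelled replicate 1 for lung and carrying no replicate number for LN, and whether that table pools isolates is not stated.

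ErbB receptors are tyrosine kinases that pair up when a ligand binds and signal through the RAS-ERK and PI3K-AKT pathways. The ligands are made as membrane-bound precursors that ADAM proteases release. *Areg*, *Ereg*, *Hbegf*, *Tgfa*, *Btc* and *Epgn* encode ligands of EGFR, some of which also bind ERBB4, while neuregulin 1 (*Nrg1*) binds ERBB3 and ERBB4. ERBB2 has no known ligand of its own and acts as the partner of the other receptors, and ERBB3 has very weak kinase activity and depends on a partner. Amphiregulin (*Areg*) is required for growth of the mammary ducts, and *Erbb2* is an amplified oncogene in a part of human breast cancers.

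Of the ligands, 4 are neighbours in the genome. *Ereg*, *Areg* and *Epgn* differed widely between the lines and *Btc* was low in all of them, so promoters of this group are shown first. *Epgn*, *Ereg*, *Areg* and *Btc* lie on chromosome 5 within 375531 bp (GRCm38), and they are the 4 protein-coding genes among 7 annotated genes of that span. *Epgn* occupies chr5:91027464-91035215, *Ereg* chr5:91074622-91093646, *Areg* chr5:91139599-91148432, all on the plus strand, and *Btc* chr5:91357261-91402994 on the minus strand. An antisense gene, *Gm19610* (chr5:91051871-91074773, minus strand), overlaps the start of *Ereg*. It reached 0.56 TPM at most, and because no strand setting is stated for these libraries, reads of the pair in the overlap cannot be told apart. RefSeq promoter entries were present for 6 of the 10 members, and the bases before the annotated start of 3 of them (GRCm38.p6, 5′ to 3′ on the gene's strand) are given below, with TATAAA and TGACGTCA, the cyclic AMP response element, in capitals.
Epgn, chr5:91027267-91027463, plus strand: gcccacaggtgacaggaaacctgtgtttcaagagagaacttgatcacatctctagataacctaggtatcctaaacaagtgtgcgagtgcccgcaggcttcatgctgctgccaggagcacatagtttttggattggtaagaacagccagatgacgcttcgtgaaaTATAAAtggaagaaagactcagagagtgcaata
Areg, chr5:91139349-91139598, plus strand: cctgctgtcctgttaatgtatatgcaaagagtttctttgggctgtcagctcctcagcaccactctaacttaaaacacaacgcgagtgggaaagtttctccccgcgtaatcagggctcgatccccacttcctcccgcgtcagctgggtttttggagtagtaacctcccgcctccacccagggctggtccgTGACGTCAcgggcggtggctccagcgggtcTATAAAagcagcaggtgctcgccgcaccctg
Btc, chr5:91402995-91403244, minus strand: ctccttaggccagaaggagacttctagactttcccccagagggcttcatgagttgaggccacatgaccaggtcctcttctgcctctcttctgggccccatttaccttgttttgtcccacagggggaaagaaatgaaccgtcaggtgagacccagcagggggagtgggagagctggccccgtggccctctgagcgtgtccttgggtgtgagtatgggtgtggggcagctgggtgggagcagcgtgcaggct
Both strands were searched for TATAAA, TGACGTCA and the AP-1 motif TGANTCA, where N is any base, and no 2 of these motifs overlapped in the 3 windows. *Areg* held TGACGTCA 61 bases and TATAAA 31 bases before the end of its window, and *Epgn* held TATAAA 33 bases before the end. No motif was found in the *Btc* window, and TGANTCA in none of the 3. Among 32851 promoters of the table, windows of up to 250 bases held TATAAA in 12.4%, TGACGTCA in 1.55% and TGANTCA in 6.75%. The *Areg* window had 15 CpG dinucleotides, against 4 in *Epgn*, 4 in *Btc* and a median of 6 over the table. TGACGTCA was added to the search after the letters had been seen.

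The identity of the lines was checked before the members were compared. *Epcam* was between 315.09 and 941.14 TPM in the 10 MFP, LN and BM libraries but between 0 and 0.86 TPM in the 4 lung libraries, which goes against their EpCAM-high label. *Cdh1*, the epithelial cadherin, was at most 0.03 TPM in the lung libraries and at least 18.67 TPM elsewhere. The 8 epithelial markers summed to 1.74 to 2.36 TPM in lung CD44low and 15.7 to 87.53 TPM in lung CD44high lines, with 5 and 3 of them at 0 in both libraries. Their sum was 6230 to 7135 TPM in MFP and 2090 to 4363 TPM in LN and BM. The 4 basal markers, of which *Krt14* made up nearly all in MFP, LN and BM, summed to 594 to 655 TPM in MFP. They summed to 13.1 to 62.7 TPM in LN and BM and at most 4.61 TPM in the lung lines. The 8 fibroblast markers summed to 4708 to 5117 TPM in lung CD44low, 85.7 to 195 TPM in lung CD44high and at most 19.9 TPM elsewhere, and the 5 smooth muscle markers to 928 to 999 TPM in lung CD44low and at most 11.8 TPM elsewhere. Of the fibroblast markers, *Col1a1* was at 83.27 to 256.76 TPM in lung CD44low and at most 0.08 TPM in lung CD44high, while *Dcn* reached 166.3 TPM in the latter. Leukocyte markers summed to 1.31 to 23.24 TPM in every group and endothelial markers to at most 0.21 TPM. Cycling markers summed to 4.34 to 68.4 TPM in the lung lines, 807 and 902 TPM in MFP and 3209 to 5120 TPM in LN and BM, except for LN CD44low replicate 2, at 497 TPM beside 3622 TPM in replicate 1. *Birc5* alone held most of the LN and BM sums, at 2496 to 4172 TPM outside LN CD44low replicate 2, against 160.89 and 145.56 TPM in MFP. *Cdk1*, in contrast, was at 355.61 and 263.64 TPM in MFP and at 220.29 to 440.06 TPM in the same LN and BM libraries. *Cd44* mRNA was highest in MFP, at 399.87 and 209.69 TPM, and lowest in the lung lines, at 12.07 to 21.95 TPM. It did not follow the CD44 labels in any organ. LN CD44low lines, at 146.7 and 82.72 TPM, were above LN CD44high lines, at 49.04 and 52.26 TPM (log2 fold change of CD44high against CD44low -1.11, SE 0.44, adjusted p = 0.42, limma), and the groups overlapped in BM and in lung. These marker differences accompany every member difference between lung and other lines, and their part in those differences was not tested. The part of the epithelial and basal differences between MFP and the LN and BM lines was not tested either. In bulk RNA, fewer cells of a type and less RNA per cell cannot be told apart.

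Differentially expressed genes (DEGs) changed by more than 2 on the log2(TPM + 1) scale, up or down, at an adjusted p (limma, Benjamini-Hochberg over 15348 genes) below 0.05. The log2 scale of TPM + 1 understates the change of low genes, and the TPM values carry no read depth, so that counting error is unknown. Over 12 comparisons, 31 of 120 member values were DEGs, in 9 comparisons. The 12 comparisons reuse the same 14 libraries, so the 120 values are not separate results. The share of all genes that were DEGs ran from 0.104% to 18.8% and is given with each comparison. Against MFP, 3 of 10 members were lower in LN CD44low (4.79% of all genes were DEGs), 2 were lower in LN CD44high (6.12% of all genes), 3 were lower in BM CD44low (7.16%) and 5 were lower in BM CD44high (7.67%). Against MFP, 3 members were lower and 1 higher in lung CD44low (18.8% of all genes), and 4 were lower and 1 higher in lung CD44high (13.5%). These 6 comparisons share the MFP libraries. The median log2 fold change of the 10 members ran from -0.75 in LN CD44low, where the median of all genes was -0.18, to -2.09 in BM CD44high, where it was -0.34. In the lung lines the members' median was -0.97 in CD44low and -1.32 in CD44high, beside 0 and -0.04 for all genes.

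**Figure D1:**
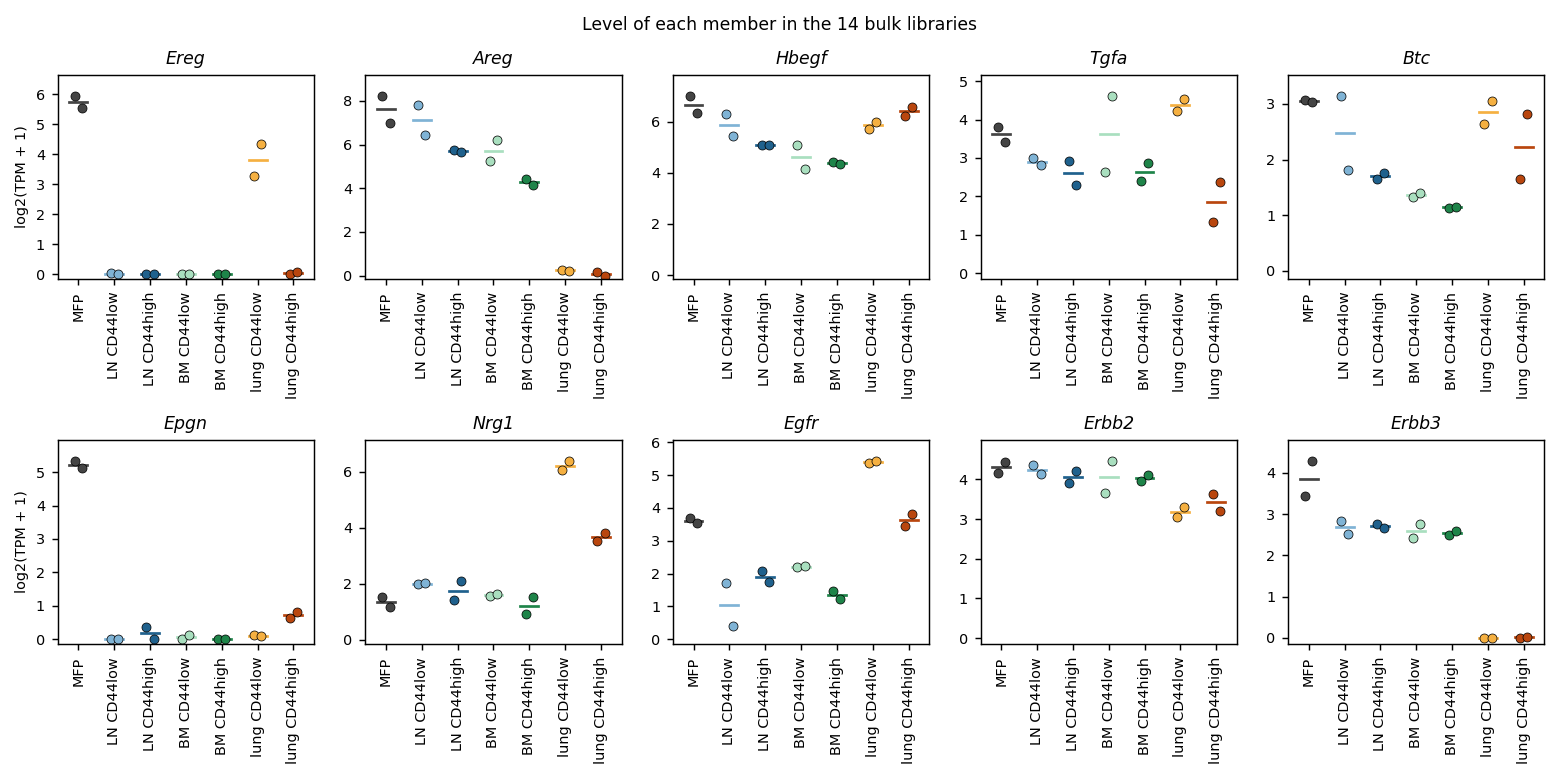
Level of the 10 members as log2(TPM + 1) in the 7 groups, with 1 point per library and a line at the mean of the 2 libraries. *Ereg* and *Epgn* stood high in MFP and near 0 in LN and BM, *Areg* and *Erbb3* near 0 in the lung lines, and *Nrg1* and *Egfr* highest in lung CD44low.

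*Ereg*, which encodes epiregulin, was a gene of the MFP and lung CD44low lines. It was at 60.74 and 45.95 TPM in MFP and at 8.67 and 19.5 TPM in lung CD44low. In LN CD44low it was at 0.03 and 0 TPM, in lung CD44high at 0 and 0.05 TPM, and both libraries of LN CD44high, BM CD44low and BM CD44high were listed at 0. The MFP libraries were above all others and the lung CD44low libraries above all 10 that remained. Against MFP, *Ereg* was lower in LN CD44low by a log2 fold change of -5.73 (SE 0.32, adjusted p = 2.7e-06, limma) and in lung CD44high by -5.72 (adjusted p = 1.0e-06). No fold is given against the groups listed at 0, where the adjusted p was 2.4e-06 for LN CD44high, 2.6e-06 for BM CD44low and 2.3e-06 for BM CD44high. Lung CD44low was also below MFP, by -1.94 (SE 0.32, adjusted p = 9.0e-04), a fold just short of the threshold. It passed without MFP replicate 2 (-2.13), without lung CD44low replicate 2 (-2.48) and with a pseudocount of 0.1 (-2.01).

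*Epgn*, which encodes epigen, a ligand that binds EGFR weakly, was higher in MFP than in all 6 tissue-derived groups. It was at 39.17 and 33.62 TPM in MFP. No other library passed 0.77 TPM, the value of lung CD44high replicate 2, and both libraries of LN CD44low and of BM CD44high were listed at 0. *Epgn* thus passed the filter on low values through the MFP libraries alone, so the filter itself favoured lower calls in the other groups. Its calls against MFP also stood with no filter on low TPM. The log2 fold change against MFP was -5.03 in LN CD44high (SE 0.19, adjusted p = 2.5e-07), -5.15 in BM CD44low, -5.12 in lung CD44low and -4.49 in lung CD44high, with adjusted p of at most 2.5e-07 (limma) in each. Among the lung lines, the CD44high libraries, at 0.56 and 0.77 TPM, were above the CD44low libraries, at 0.08 and 0.07 TPM, by 0.63 (SE 0.19, adjusted p = 0.033), below the fold threshold, which it passed with a pseudocount of 0.1 (2.11, adjusted p = 0.029).

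*Areg* was the most abundant ligand of the MFP and LN lines and was nearly absent from the lung lines. MFP held 297.05 and 127.36 TPM, LN CD44low 223.8 and 86.34 TPM and LN CD44high 52.9 and 49.05 TPM. In BM it was at 36.75 and 73.22 TPM in CD44low and at 20.22 and 16.63 TPM in CD44high lines, and the 4 lung libraries held 0 to 0.21 TPM. MFP and LN CD44low overlapped, while every lung library was below every other library. Against MFP, *Areg* was lower in lung CD44low by a log2 fold change of -7.36 (SE 0.50, adjusted p = 1.8e-06), in lung CD44high by -7.54 (adjusted p = 3.0e-06) and in BM CD44high by -3.34 (adjusted p = 0.0011). The differences of LN CD44high (-1.91, adjusted p = 0.021) and BM CD44low (-1.89, adjusted p = 0.023) from MFP fell short of the fold threshold and passed it without MFP replicate 2, at -2.52 and -2.49. Within LN and BM, both CD44high libraries were below both CD44low libraries, by -1.43 (SE 0.50, adjusted p = 0.36) and -1.45 (SE 0.50, adjusted p = 0.62), neither of which passed the test.

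*Hbegf*, which encodes heparin-binding EGF-like growth factor, was present in every library. It was at 127.47 and 79.67 TPM in MFP, at 73.44 and 94.94 TPM in lung CD44high and at 51.59 and 62.84 TPM in lung CD44low. It was at 77.99 and 42.64 TPM in LN CD44low, 33.28 and 33.08 TPM in LN CD44high, 32.76 and 16.77 TPM in BM CD44low and 20.22 and 19.49 TPM in BM CD44high. The BM lines were lowest, and overlapped each other. MFP overlapped lung CD44high, and LN CD44low overlapped both lung groups. *Hbegf* was lower than in MFP in BM CD44low (log2 fold change -2.06, SE 0.37, adjusted p = 0.0033) and in BM CD44high (-2.29, adjusted p = 0.0016). Both calls were lost, with folds of -1.77 and -1.73, when TPM were rescaled by median ratios, and both without MFP replicate 1, at -1.72 and -1.95. The BM CD44low call was also lost without BM CD44low replicate 2, at -1.59, and with only BM CD44low and MFP in the fit (-2.06, adjusted p = 0.10).

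*Tgfa* and *Btc*, which encode transforming growth factor alpha and betacellulin, reached at most 23.58 and 7.89 TPM in a library. *Tgfa* was at 17.62 and 22.05 TPM in lung CD44low and at 1.54 and 4.14 TPM in lung CD44high, and elsewhere it ran from 3.88 to 23.58 TPM. The highest of these values, in BM CD44low replicate 2, stood beside 5.25 TPM in replicate 1 of the same group. *Tgfa* was lower in lung CD44high than in lung CD44low (log2 fold change -2.52, SE 0.58, adjusted p = 0.0093), and this call was lost without lung CD44low replicate 2 (-2.37, adjusted p = 0.069) or without lung CD44high replicate 1 (-2.01, adjusted p = 0.080). *Btc* ran from 1.18 TPM in BM CD44high to 7.89 TPM in LN CD44low and was a DEG in none of the 12 comparisons by the test as set. With a pseudocount of 0.1 it passed in BM CD44low (-2.15, adjusted p = 0.025) and BM CD44high (-2.50, adjusted p = 0.011) against MFP. Its largest difference from MFP, where it was at 7.36 and 7.17 TPM, was -1.91 in BM CD44high (SE 0.47, adjusted p = 0.014).

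*Nrg1* was the ligand that rose in the lung lines. It was at 64.84 and 81.61 TPM in lung CD44low and at 10.54 and 13.04 TPM in lung CD44high. The other 10 libraries held 0.89 to 3.26 TPM, so that neither lung group overlapped any other group. Against MFP, at 1.89 and 1.28 TPM, *Nrg1* was higher in lung CD44low by a log2 fold change of 4.84 (SE 0.32, adjusted p = 1.5e-06) and in lung CD44high by 2.31 (SE 0.32, adjusted p = 4.1e-04). Both calls held in each of the 14 fits without 1 library.

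**Figure D2:**
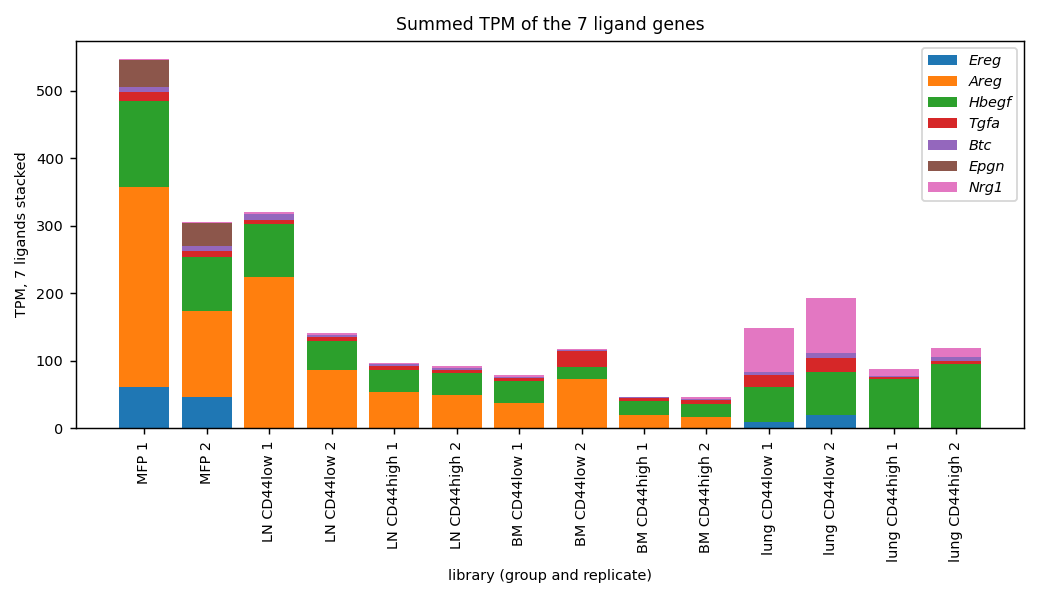
Summed TPM of the 7 ligand genes in each of the 14 bulk libraries, stacked by gene, with group and replicate on the horizontal axis. The sums ran from 45.6 TPM in BM CD44high to 547 TPM in MFP, and the leading gene was *Nrg1* in lung CD44low and *Hbegf* in lung CD44high.

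TPM are per transcript length, so the ligands can be added within a library. The 7 ligands summed to 546.67 and 304.78 TPM in MFP, and in LN to 319.6 and 140.59 TPM (CD44low) and 96.9 and 91.66 TPM (CD44high). BM CD44low lines held 78.21 and 117.4 TPM. The sum was lowest in BM CD44high, at 46.81 and 45.56 TPM, and was 148.26 and 193.57 TPM in lung CD44low and 88.31 and 118.96 TPM in lung CD44high. *Areg* had the highest value in 9 of the 10 MFP, LN and BM libraries, with 41.8% to 70.0% of the sum. In 1 of these, BM CD44high replicate 1, it was level with *Hbegf*, at 20.22 TPM each. BM CD44high replicate 2 was led by *Hbegf*, with 42.8%. In the lung CD44low libraries *Nrg1* led with 43.7% and 42.2% of the sum, and in lung CD44high *Hbegf* led with 83.2% and 79.8%.

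Of the receptors, *Egfr* was highest in lung CD44low. It was at 40.46 and 41.99 TPM there, at 10.01 and 13.1 TPM in lung CD44high and at 11.93 and 10.66 TPM in MFP. The LN and BM libraries held 0.32 to 3.67 TPM, all below the MFP and lung libraries, and the MFP and lung CD44high libraries overlapped. *Egfr* was lower than in MFP in LN CD44low (log2 fold change -2.56, SE 0.39, adjusted p = 0.0017) and in BM CD44high (-2.27, SE 0.39, adjusted p = 0.0022). The LN CD44low call rested on replicate 2, at 0.32 TPM beside 2.29 TPM in replicate 1, and was lost without it (-1.90). Replicate 2 is the library with the low cycling markers, whose part in this value was not tested. With only LN CD44low and MFP in the fit its adjusted p was 0.14, and the BM CD44high fold was -1.83 after median-ratio scaling. Lung CD44low was above MFP by 1.78 (SE 0.39, adjusted p = 0.0043), within the fold threshold.

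*Erbb3* separated the lung lines from the rest, and *Erbb2* varied least of the receptors. *Erbb3* was at 9.76 and 18.46 TPM in MFP, and the 8 libraries from LN and BM held 4.31 to 6.14 TPM. It was listed at 0 in both lung CD44low libraries and at 0 and 0.02 TPM in lung CD44high. *Erbb3* was lower than in MFP in lung CD44high (log2 fold change -3.84, SE 0.31, adjusted p = 1.1e-05) and in lung CD44low (adjusted p = 5.6e-06, with no fold against a group at 0). In the LN and BM groups its log2 fold change against MFP was -1.32 to -1.15, with adjusted p of 0.011 to 0.032 and folds within the threshold. *Erbb2* was at 16.91 and 20.71 TPM in MFP, at 11.65 to 20.99 TPM in LN and BM and at 7.23 to 11.45 TPM in the lung lines. Its difference from MFP was -1.13 in lung CD44low (SE 0.30, adjusted p = 0.012) and -0.88 in lung CD44high (adjusted p = 0.045), and it was no DEG in any comparison.

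**Figure D3:**
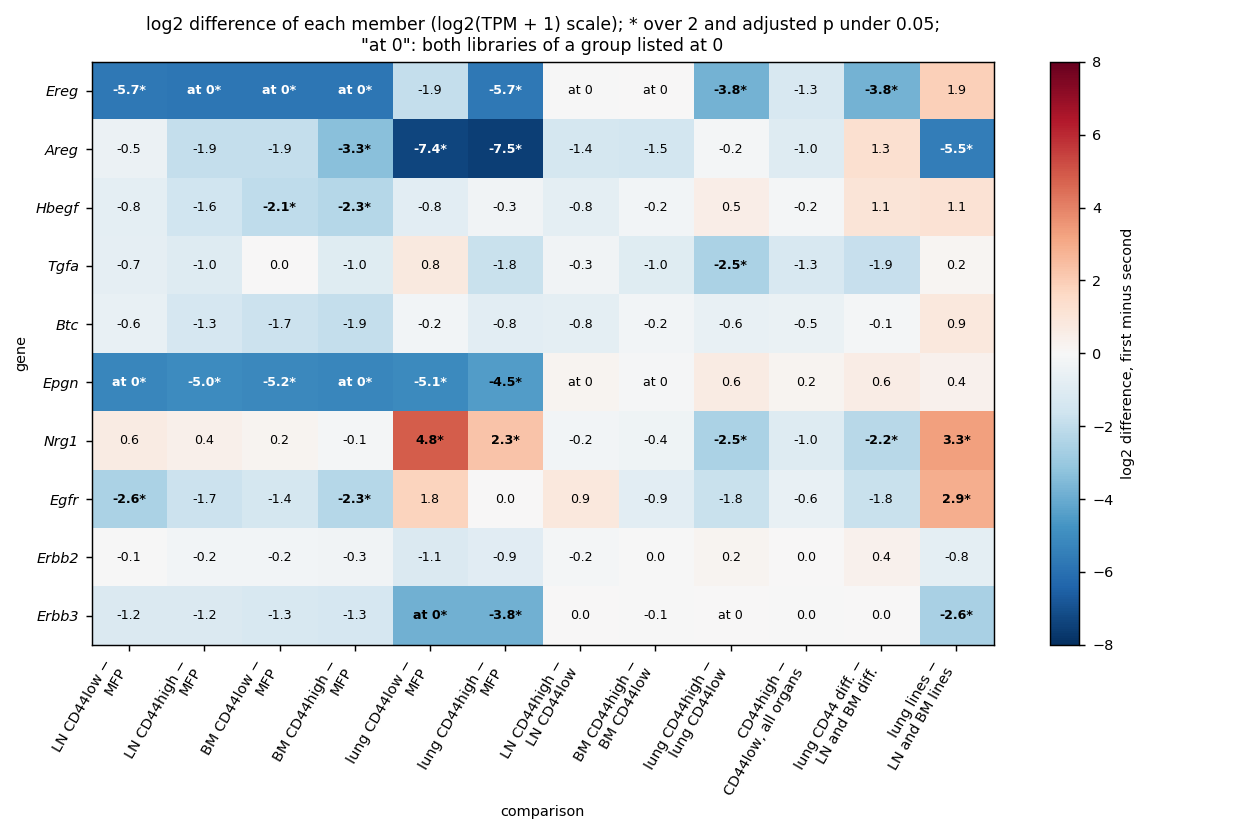
log2 difference of each member (first group minus second, log2(TPM + 1) scale) in the 12 comparisons, with a star for a DEG and "at 0" where both libraries of a compared group were listed at 0. The 31 starred cells lie mostly in the comparisons with MFP, and none lies in the LN or BM CD44 comparisons.

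Lines labelled CD44high and CD44low by surface sorting were compared within each organ, although *Cd44* mRNA was lower in both LN CD44high libraries than in LN CD44low and overlapped between the CD44 groups of BM and of lung. None of the 10 members was a DEG between CD44high and CD44low lines of LN (0.208% of all genes were DEGs by limma) or of BM (0.104%). At an unadjusted p under 0.05 (limma) with no fold threshold, 1 member differed in LN (*Areg*) and 2 in BM (*Areg* and *Egfr*). The share of all genes at that p was not computed. In lung, 3 members were lower in CD44high, *Ereg* (log2 fold change -3.78, SE 0.32, adjusted p = 1.3e-05), *Nrg1* (-2.53, SE 0.32, adjusted p = 2.5e-04) and *Tgfa*, where 11.3% of all genes were DEGs. *Egfr* was also lower in lung CD44high, by -1.76 (SE 0.39, adjusted p = 0.0071), short of the fold threshold. The members' median was -0.40 in lung, beside -0.01 for all genes. Across the 3 organs together no member was a DEG (1.02% of all genes), and *Ereg* passed the fold threshold with a pseudocount of 0.1 (-2.31). With no fold threshold, 6 members had an unadjusted p and 4 an adjusted p under 0.05 (limma). Here too the share of all genes at these p-values was not computed, so the counts are not set against one. The CD44 difference in lung was then tested against those in LN and BM. In that contrast *Ereg* (-3.77, SE 0.39, adjusted p = 7.9e-05) and *Nrg1* (-2.23, SE 0.40, adjusted p = 0.0028) were lower, where 9.59% of all genes passed.

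All lung lines were then compared with all LN and BM lines. *Nrg1* was higher in lung by a log2 difference of 3.29 (SE 0.20, adjusted p = 5.4e-07) and *Egfr* by 2.89 (SE 0.24, adjusted p = 4.9e-06). *Areg* was lower by -5.54 (SE 0.31, adjusted p = 3.1e-07) and *Erbb3* by -2.62 (SE 0.19, adjusted p = 2.0e-06). For each of these 4 genes every lung library lay on one side of all 8 LN and BM libraries. Thus 4 of 10 members were DEGs, where 12.7% of all genes were, and the median difference was 0.61 for the members and 0.20 for all genes. *Hbegf* (1.14, adjusted p = 0.0017) and *Ereg* (1.92, adjusted p = 2.2e-05) overlapped between the 2 sets of lines and stayed within the fold threshold, which *Ereg* passed without lung CD44low replicate 1 (2.19) and with a pseudocount of 0.1 (3.62).

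The members that varied together over the 14 bulk libraries are given as a description, since libraries of a group and of an organ share their source. The highest Pearson r of log2(TPM + 1) between 2 members was 0.95 for *Areg* and *Erbb3*, followed by 0.89 for *Erbb2* and *Erbb3*, 0.85 for *Hbegf* and *Btc* and 0.79 for *Nrg1* and *Egfr*. The lowest was -0.86 for *Nrg1* and *Erbb3*. Over all tested genes, the pattern most like that of *Erbb3* was that of *Cdh1* (r = 0.99). For *Areg* it was *Lad1*, which encodes a basement membrane protein (0.98), and *Tnnt2* (0.98), for *Erbb2* the polarity genes *Celsr1* (0.95) and *Llgl2* (0.95), and for *Egfr* *Tfdp2* (0.96) and *Bdnf* (0.95). For *Epgn* it was the collagen gene *Col4a6* (0.997) and the transcription factor gene *Pax3* (0.993), for *Ereg* *9130019O22Rik* (0.99) and *Fam49a* (0.99), and for *Nrg1* *Gm34756* (0.98) and the cannabinoid receptor gene *Cnr1* (0.98). *Hbegf* was most like *Tfip11* (0.96) and *Fam110c* (0.94), *Tgfa* most like *Wbp4* (0.95) and *Ppig* (0.95), and *Btc* most like *Trim16* (0.95) and *Efcab14* (0.94).

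The rest of the pathway was described by 4 lists with 58 tested genes. Of 5 genes for ligand release, *Rhbdf2*, which encodes an inactive rhomboid protein that supports maturation of the protease ADAM17, was lower than MFP in all 6 tissue-derived groups. It was at 51.41 and 39.79 TPM in MFP. Lung CD44high lines held 1.43 and 1.69 TPM and the other groups 3.13 to 8.42 TPM, with no overlap with MFP. With only the compared groups in the fit, the *Rhbdf2* calls in LN CD44low (adjusted p = 0.11) and BM CD44low (adjusted p = 0.061) were lost at the same fold. Its largest log2 fold change was -4.18 in lung CD44high (SE 0.43, adjusted p = 6.2e-05). *Bace1*, a protease that cleaves neuregulin 1, was lower in LN CD44high (-2.39, SE 0.43, adjusted p = 0.0032) and in BM CD44high (-2.16). Both calls of *Bace1* were lost with median-ratio scaling (-1.88 and -1.61), and that in BM CD44high without BM CD44high replicate 1 (-1.94). In BM CD44low its fold of -1.98 passed the threshold with a pseudocount of 0.1 (-2.06), without MFP replicate 1 (-2.13) and without BM CD44low replicate 2 (-2.33). *Adam10*, *Adam17* and *Rhbdf1* were no DEGs in any comparison. The median of the 5 genes was -0.80 in lung CD44low and -0.65 in lung CD44high, beside 0 and -0.04 for all genes.

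Among 22 adaptors and kinases, none was a DEG in LN CD44low, LN CD44high or BM CD44high against MFP, and 1 (*Gab1*, higher) was in BM CD44low, where 4.79%, 6.12%, 7.67% and 7.16% of all genes were DEGs. The *Gab1* call in BM CD44low, at 2.07, was lost without BM CD44low replicate 2 (1.198), without either MFP library (adjusted p = 0.072 and 0.070) and with only the compared groups in the fit (adjusted p = 0.20). At an unadjusted p under 0.05 with the same fold threshold, the 4 lists together gave 3, 7, 9 and 8 DEGs in LN CD44low, LN CD44high, BM CD44high and BM CD44low against MFP, and 3, 7, 8 and 8 with the adjusted p. In lung CD44low 3 were higher and 1 lower and in lung CD44high 2 higher and 1 lower, with list medians of 0.97 and 0.38. These 4 and 3 of 22 genes are close to the 18.8% and 13.5% of all genes that were DEGs. *Plcg1*, which encodes phospholipase C gamma 1, was at 39.81 and 57 TPM in lung CD44low and at 7.73 and 4.58 TPM in MFP (log2 fold change 2.80, SE 0.69, adjusted p = 0.0081). This *Plcg1* call was lost without MFP replicate 2 (2.48, adjusted p = 0.059) or lung CD44low replicate 2 (2.55, adjusted p = 0.065). The adaptor gene *Gab1* was at 15.12 and 24.86 TPM in lung CD44low and at 2.26 and 2.33 TPM in MFP (2.63, SE 0.50, adjusted p = 0.0019). BM CD44low replicate 2 stood apart from replicate 1 in both genes, at 33.53 against 5.05 TPM for *Plcg1* and 24.46 against 6.56 TPM for *Gab1*. The pathway counts in BM CD44low thus depended on which library was kept.

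Of 16 negative regulators, 4 were higher and none lower in lung CD44low against MFP, while 1 was lower in lung CD44high, where 18.8% and 13.5% of all genes were DEGs. The inhibitors *Spred2* and *Socs5* had the largest folds, *Spred2* from 0.90 and 0.69 TPM in MFP to 13.33 and 18.47 TPM in lung CD44low (log2 fold change 3.22, SE 0.79, adjusted p = 0.0079) and *Socs5* from 7.46 and 7.98 TPM to 55.87 and 96.71 TPM (3.10, SE 0.77, adjusted p = 0.0083). Both calls were lost without lung CD44low replicate 2, *Spred2* at an adjusted p of 0.059 and *Socs5* at 0.072. In LN and BM against MFP, 0 to 2 were lower and none higher by the test as set, where 4.79% to 7.67% of all genes were DEGs. BM CD44low replicate 2 stood apart here too, at 17.58 against 1.05 TPM in replicate 1 for *Spred2*, 49.26 against 5.13 TPM for *Socs5* and 117.6 against 9.87 TPM for *Spry2*, another inhibitor. Without replicate 1, *Spred2* (3.37, adjusted p = 3.9e-04) and *Socs5* (2.53, adjusted p = 0.0023) were DEGs in BM CD44low against MFP. *Dusp6*, a phosphatase of ERK that ERK signaling induces, was named after its values were seen. Against MFP, *Dusp6* was short of the fold threshold in LN CD44high (1.94) and BM CD44high (1.93) and passed it in both with median-ratio scaling (2.47 and 2.49). It also passed in BM CD44high without MFP replicate 1 (2.21) or BM CD44high replicate 2 (2.22), and in BM CD44low without BM CD44low replicate 2 (2.30). It was at 19.54 to 43.19 TPM in the lung lines and at 128.13 to 312.63 TPM in LN and BM, a difference of -2.76 (SE 0.31, adjusted p = 4.0e-05), with no overlap. *Dusp6* was the only 1 of the 16 that was lower in lung lines than in LN and BM lines. In that comparison 2 were higher, with a list median of 0.53, where 12.7% of all genes were DEGs.

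Of the 16 genes listed as responsive to ERK, 15 were tested. In lung CD44low 4 were higher and 2 lower than in MFP, and in lung CD44high none was higher and 4 were lower, with medians of 0.44 and -1.20. Over all genes, 18.8% and 13.5% were DEGs in these comparisons. In LN CD44low, LN CD44high, BM CD44low and BM CD44high 1, 1, 2 and 1 were higher and 1, 3, 3 and 3 lower, beside 4.79% to 7.67% of all genes. *Etv5*, an ETS transcription factor gene named after its values were seen, was at 5.04 and 1.41 TPM in MFP and was higher in all 4 of these groups and in lung CD44low (3.18, adjusted p = 2.6e-04). It was at 13.55 and 18.43 TPM in LN CD44low (log2 fold change 2.14, adjusted p = 0.0091) and at 58.06 to 111.45 TPM in LN CD44high and BM (4.22 to 4.48, adjusted p of 8.0e-05 to 1.2e-04). The *Etv5* call in LN CD44low was lost without MFP replicate 2 (1.48), without LN CD44low replicate 2 (1.93) and with only the compared groups in the fit (adjusted p = 0.18). *Plaur*, which encodes the urokinase receptor, was at 144.49 and 103.26 TPM in MFP and fell to 20.75 and 24.77 TPM in lung CD44low and to 0.66 and 1.03 TPM in lung CD44high (log2 fold change of the last against MFP -6.07, SE 0.29, adjusted p = 3.8e-07). The AP-1 gene *Fosl1* fell from 91.43 and 70.73 TPM in MFP to 2.34 and 2.45 TPM in lung CD44high (-4.58, SE 0.51, adjusted p = 9.4e-05). Within lung, 5 of the 15 were lower in CD44high and none higher, namely *Plaur*, *Fosl1*, *Egr1*, *Ier2* and *Phlda1*, of which the last 3 were named after their values were seen, where 11.3% of all genes were DEGs. The *Ier2* call was lost without lung CD44high replicate 2 (-1.72) and with only the lung groups in the fit (adjusted p = 0.052). The list's median was -1.38 beside -0.01 for all genes. *Egr1*, an immediate early gene, was at 277.08 and 426.79 TPM in lung CD44low and 33.86 and 12.11 TPM in lung CD44high. Between CD44high and CD44low lines of LN and of BM, none of the 58 genes of the 4 lists was a DEG by limma, and 1 and 2 were at an unadjusted p under 0.05. For BM this rested on CD44low replicate 1. Without it, *Socs5* (-2.89), *Spred2* (-2.87) and *Plcg1* (-2.64), among others, were past the fold threshold in BM CD44high against BM CD44low.

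The remaining genes of the family were low or at 0 in bulk. *Nrg3* and *Erbb4* were listed at 0 in all 14 libraries, *Egf* was at 0.03 to 0.64 TPM and *Nrg4* at 0 to 0.2 TPM. *Nrg2*, the only one that passed the filter, reached 3.85 TPM in BM CD44low replicate 2 and was no DEG in any comparison.

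Single cells were compared as counts summed over the cells of a library, per 10000 counts, because there was 1 library for each line and no test between lines was possible. With over 250 genes and under 10% mitochondrial counts, 2562 of 3297 barcodes were kept in lymphH, 348 of 2808 in lungL and 1236 of 3623 in lungH. They held 5287425, 2220759 and 2210623 counts, at a median of 585, 4011 and 557 counts per cell. A count of 0 allows up to 0.00567 per 10000 in lymphH, 0.0135 in lungL and 0.0136 in lungH (3 counts), and this limit also closes the interval of a count of 0. The other intervals are exact Poisson 95% intervals, and all cover counting error only. *Cd44* was at 4.49 per 10000 in lymphH, 8.51 in lungL and 4.99 in lungH, again not in the order of the labels for lung. *Epcam* was at 1.77 per 10000 in lymphH, 0 in lungL and 0.0136 in lungH, and *Acta2* at 0, 45.5 and 0.0588. *Mki67* was at 0.870 per 10000 in lymphH, 0.266 in lungL and 1.84 in lungH. In bulk its order was the reverse, at 0.05 and 1.24 TPM in lung CD44high and 7.89 and 7.17 TPM in LN CD44high. Of the family genes that are no members, *Nrg4* had 57, 26 and 31 counts in lymphH, lungL and lungH, or 0.108, 0.117 and 0.140 per 10000, above *Nrg1* in lymphH at 0.0624.

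**Figure D4:**
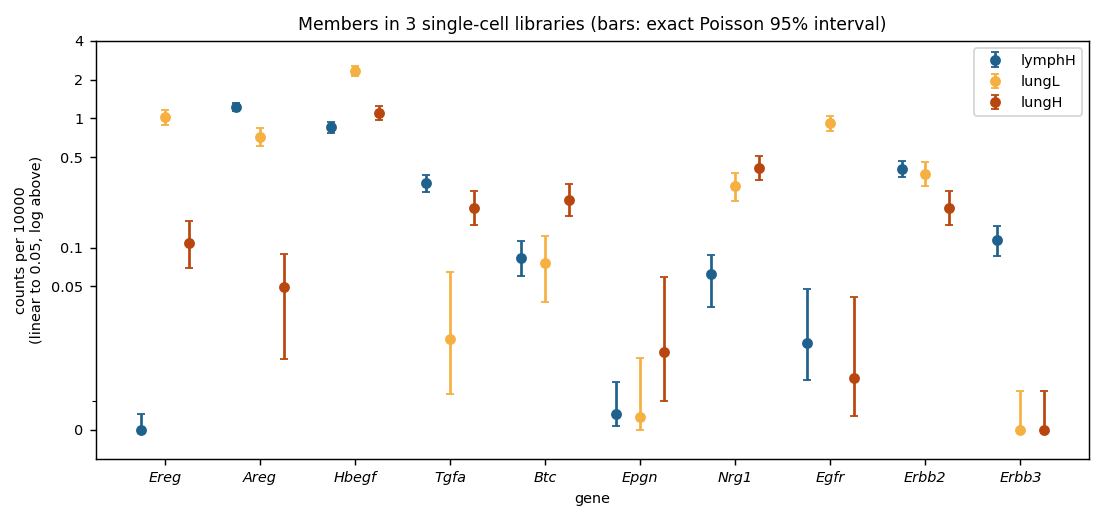
Counts per 10000 of each member in lymphH, lungL and lungH, with exact Poisson 95% intervals, on an axis that is linear to 0.05 and logarithmic above. *Ereg* and *Egfr* were highest in lungL, *Areg* and *Erbb3* in lymphH.

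*Ereg* had 0 counts in lymphH, 228 in lungL (1.03 per 10000, 95% interval 0.898 to 1.17) and 24 in lungH (0.109, 0.0696 to 0.162). *Areg* was at 1.23 per 10000 in lymphH (1.13 to 1.32), 0.721 in lungL (0.613 to 0.841) and 0.0498 in lungH (0.0248 to 0.0890). *Hbegf* was at 0.855 in lymphH, 2.32 in lungL and 1.10 in lungH. The lungL library thus held more *Ereg* and *Hbegf* than the others and less *Areg* than lymphH, beyond counting error. In bulk, *Hbegf* was instead lower in lung CD44low (51.59 and 62.84 TPM) than in lung CD44high (73.44 and 94.94 TPM), a difference that was no DEG.

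*Nrg1* was at 0.0624 per 10000 in lymphH (0.0430 to 0.0877), 0.297 in lungL (0.230 to 0.378) and 0.416 in lungH (0.336 to 0.510), so that the lung libraries were above lymphH and overlapped each other. In bulk, *Nrg1* was instead higher in lung CD44low (64.84 and 81.61 TPM) than in lung CD44high (10.54 and 13.04 TPM). *Tgfa* was at 0.314, 0.0315 and 0.204 in lymphH, lungL and lungH, *Btc* at 0.0832, 0.0765 and 0.235, and *Epgn* had 3, 1 and 6 counts. The lowest *Tgfa* level was thus in lungL, while in bulk the lung CD44low lines were above all groups but BM CD44low. Of the receptors, *Egfr* was at 0.914 in lungL (0.793 to 1.05), with 16 counts in lymphH and 4 in lungH. *Erbb2* was at 0.407, 0.374 and 0.204, and *Erbb3* was at 0.114 in lymphH and had 0 counts in both lung libraries. In lungH *Egfr* was thus at 0.0181 per 10000 (0.00493 to 0.0463), while bulk lung CD44high lines held 10.01 and 13.1 TPM. The lines for single cells were selected from those profiled in bulk, but which isolate was used is not stated.

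The kept cells were clustered (Leiden, resolution 0.8), and levels are given for clusters with at least 30 cells of a library, a minimum set after the clusters had been seen. In lungL, 278 of 348 cells fell in 2 clusters of 139 cells each that no cell of another library joined. One was led by *Acta2* and *Grem1* (cluster 6, median 11750 counts per cell) and the other by *Col1a1* and *Col5a2* (cluster 8, median 762). A further 38 lungL cells shared a cluster with 214 lungH cells, led by *Prl2c3* and *Aldh3a1* (cluster 7). The smooth muscle markers summed to 80.7 and 69.0 per 10000 in lungL cells of clusters 6 and 8 and to 2.27 in those of cluster 7, the cycling markers to 2.03, 2.33 and 15.9.

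**Figure D5:**
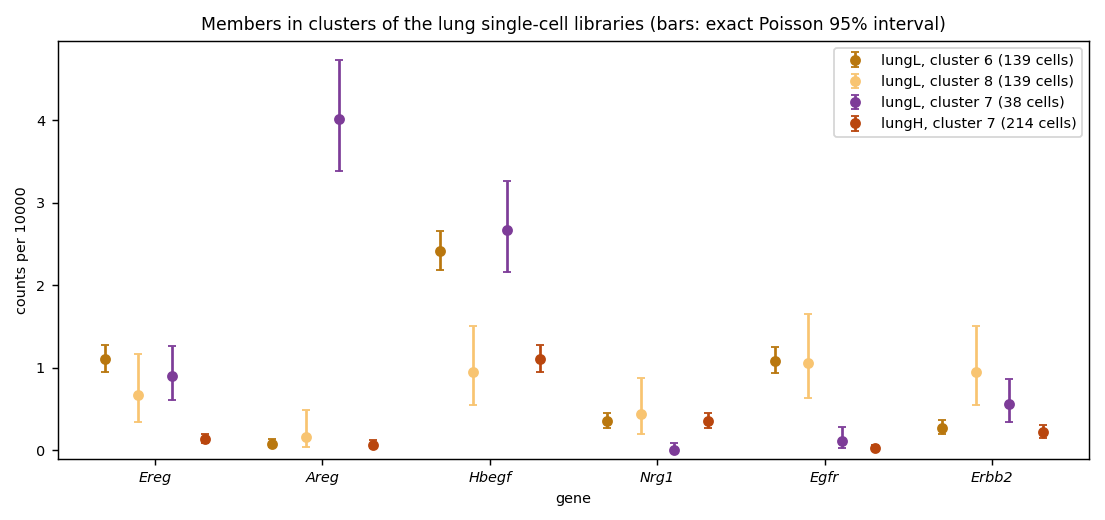
Counts per 10000 of 6 members in lungL cells of clusters 6, 8 and 7 and in lungH cells of cluster 7, with exact Poisson 95% intervals. *Areg* was highest in the 38 lungL cells of cluster 7, where *Nrg1* had no count.

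The 38 lungL cells of cluster 7 carried 89.4% of the *Areg* counts of their library. *Areg* was at 4.01 per 10000 in them (3.38 to 4.73), with a count in 31 of 38 cells, against 0.0783 in cluster 6 (0.0417 to 0.134), 0.167 in cluster 8 (0.0344 to 0.487) and 0.0669 in lungH cells of cluster 7 (0.0334 to 0.120). *Nrg1* had 0 counts in these 38 cells (at most 0.0842) and was at 0.349 in cluster 6 (0.265 to 0.451). *Egfr* was at 0.112 in them (0.0306 to 0.287) and at 1.08 in cluster 6 (0.931 to 1.25) and 1.06 in cluster 8. *Ereg*, in contrast, was at 0.898 (0.614 to 1.27) in the 38 cells and at 1.10 (0.948 to 1.27) in cluster 6, within counting error of each other. *Hbegf* was at 2.67 in the 38 cells, 2.41 in cluster 6 and 0.945 in cluster 8 (0.550 to 1.51). *Epcam* had no count in lungL, and *Krt8* and *Krt18* were at 0.758 and 2.19 in its cluster 7 cells and at 0.00602 and 0.181 in cluster 6. Doublets were not removed, and the 38 cells had a median of 9752 counts.

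In lymphH the 4 clusters differed in depth, with a median of 15897 counts in the 273 cells of cluster 0 and 556 to 577 in the others. *Areg* ran from 0.744 to 1.33 per 10000 over these clusters, *Hbegf* from 0.619 to 0.898 and *Erbb2* from 0.282 to 0.429. *Ereg* had no count in any of them. In lungH, the 214 deep cells of cluster 7 held 1643910 of the 2210623 counts of the library and 22 of the 24 *Ereg* counts (0.134 per 10000, 0.0839 to 0.203). The other 2 *Ereg* counts were in the 272 shallow cells of cluster 3, at the same level but with a wide interval (0.134, 0.0162 to 0.484), and the 667 shallow cells of cluster 5 held none (at most 0.0802).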

How the data were processed

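Bulk RNA-seq was measured in 14 libraries and single-cell RNA-seq in 3. For bulk libraries the authors used modified SMART-seq2 chemistry, STAR on mm10 and RSEM, and the deposited unit is TPM. They quantified the ddSeq single-cell libraries with kallisto and deposited whole-number counts per gene and barcode, and whether molecular identifiers were collapsed is not given in the sources used here. The authors state at least 10 M bulk reads per library. Between 11508 and 13052 genes reached 1 TPM in a library.

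The 15348 genes that reached 1 TPM in 2 or more libraries were fitted as log2(TPM + 1) with limma 3.58.1 (R 4.3.3, eBayes with trend) with 1 mean per group (7 residual degrees of freedom), for 12 comparisons. The study used the exact test of edgeR on counts that were not used here. Replicate p-values measure the spread between 2 clonal isolates. The groups share replicate numbers, but the correlation of same-numbered deviations ran from -0.19 to 0.17 over 21 pairs of groups, so no block was used. Single-cell counts were summed per library, and clusters were made with scanpy 1.11.5 (2000 variable genes, 20 components, 15 neighbours). Columns of the single-cell tables carry numbers in place of barcode sequences, so shared barcodes could not be counted.

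The named genes were all members, the remaining family genes, the 2 largest DEGs against MFP of each pathway list and the 2 genes most like each member by Pearson r. One of the latter, and single results of the pathway lists, are not reported here. *Dusp6*, *Egr1*, *Ier2*, *Phlda1*, *Etv5*, *Spry2* and further pathway genes of the closing section were named after their values were seen. The members and lists were chosen with earlier results of these data known. Alternatives were another pseudocount, 2 other filters, median-ratio scaling, a replicate block, unadjusted p, a fit of only the groups compared, and leaving out each library, all of which were added for single pathway genes after the data were seen; for single cells, other cell filters, per-cell means and cluster resolutions.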

Additional observations from a re-analysis of the deposited data

Results flagged for a closer look

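The difference between lines labelled CD44high and CD44low was not the same in lung as in LN and BM for 3 of 10 members and 15 of 58 pathway genes. This was at an adjusted p under 0.05 by the interaction contrast of limma. Over all genes 22% had such a p, close to the share of the pathway genes, and *Cd44* mRNA did not follow the labels in any organ. The values are log2 differences of CD44high from CD44low in lung minus the mean of those in LN and BM, and 16 of these 18 were below 0, beside 1741 of the 3372 genes with such a p over all genes. The members were *Ereg* (-3.77, adjusted p = 7.9e-05), *Nrg1* (-2.23, adjusted p = 0.0028) and *Egfr* (-1.75, adjusted p = 0.025). Of the genes responsive to ERK, *Phlda1* was at -5.37, *Egr1* at -3.69, *Plaur* at -3.29, *Etv5* at -2.75, *Ier2* at -2.22, *Fosl1* at -2.12 and *Ier3* at -1.82. The first 6 of these 7 were past the fold threshold, as 9.59% of all genes were. For *Fosl1* the adjusted p was 0.036, and the call was lost in 12 of the 14 fits without 1 library, all but those without LN CD44low replicate 1 or BM CD44low replicate 2, with the replicate block (adjusted p = 0.054), with no filter on low TPM (adjusted p = 0.069) and with only the compared groups (adjusted p = 0.056). The *Ier2* call was lost without lung CD44low replicate 2 (adjusted p = 0.051) or lung CD44high replicate 2 (-1.63). Negative regulators were *Spry4* (-1.90), *Spry1* (-1.64) and *Lrig3* (-1.58), within the fold threshold. *Spry4* passed it with a pseudocount of 0.1 (-4.20), without BM CD44low replicate 2 (-2.002) and without lung CD44low replicate 1 (-2.04). The rest of the 18 were adaptors and kinases that are not named, and those above 0 were among them. For *Egfr* the lung difference was -1.76, that of BM -0.87 and that of LN 0.85, in the opposite direction, and neither of the last 2 passed the adjusted test. For *Etv5* the lung difference was -1.77 and that of BM -0.11, while LN CD44high was above LN CD44low by 2.08 (adjusted p = 0.10). *Egfr* was short of the fold threshold and passed it without LN CD44low replicate 1 (-2.08). For *Ereg*, LN and BM lines were at or near 0 in both CD44 groups, and for *Nrg1* they held 0.89 to 3.26 TPM. The lung lines also differed from each other in fibroblast and smooth muscle markers, whose part in these differences was not tested.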

How the results depend on the processing

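Of the 31 member DEGs, 26 stayed DEGs under every alternative and in every fit without 1 library, and none of the 31 changed direction. The 5 that did not were *Egfr* in LN CD44low and BM CD44high, *Hbegf* in BM CD44low and BM CD44high, and *Tgfa* between the lung lines, with the values given in the report. Members short of a threshold became DEGs in 8 of 840 results of the 7 alternatives, 7 of them with a pseudocount of 0.1, and in 9 of 1680 results of the 14 fits without 1 library. Among them were *Tgfa* in lung CD44high against MFP (-2.10 with a pseudocount of 0.1, -2.27 without lung CD44high replicate 2), the lung CD44 difference against those of LN and BM for *Tgfa* (-2.03 with median-ratio scaling, -2.37 without BM CD44low replicate 2) and for *Egfr* (-2.08 without LN CD44low replicate 1), and *Areg* in BM CD44low against MFP (-2.37 without BM CD44low replicate 2). Same-numbered deviations were little correlated (3 of 21 correlations were over 0.1), which cannot show whether lines of one number came from the same mouse. With the replicate block the member counts were 3, 2, 3, 5, 4 and 5 against MFP, as without it. Pathway counts with the replicate block were 14 in place of 15 in lung CD44low against MFP. With a pseudocount of 0.1, 1 member and 1 pathway gene were DEGs across organs, where there were none, and 10 pathway genes in place of 6 differed in the lung CD44 effect. With median-ratio scaling, 3 members in place of 5 were DEGs in BM CD44high, and 5 in place of 8 pathway genes in BM CD44low and 4 in place of 7 between lung and the LN and BM lines. It moved the median of all genes from -0.34 to 0.05 in BM CD44high and from -0.30 to 0.03 in LN CD44high against MFP. At unadjusted p, 1 pathway gene differed by CD44 in LN and 2 in BM, where there were none. With only the groups compared in the fit, pathway counts were 0 in LN CD44low and 3 in BM CD44low.

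Pathway counts moved by over 1.5 times without 1 library as follows: 1 without MFP replicate 2 in LN CD44low against MFP, 6 without LN CD44low replicate 1 in LN CD44low against MFP, 17 without BM CD44low replicate 1 in BM CD44low against MFP, 12 without BM CD44low replicate 1 in BM CD44high against BM CD44low, 2 without BM CD44low replicate 1 in CD44high against CD44low across organs, 5 without BM CD44high replicate 1 in BM CD44high against MFP, 5 without lung CD44low replicate 2 in lung CD44high against lung CD44low, 4 without lung CD44high replicate 1 in lung lines against LN and BM lines, 4 without lung CD44high replicate 2 in lung CD44high against lung CD44low. The ranges over all 14 such fits were 1 to 6 in LN CD44low against MFP, 6 to 17 in BM CD44low against MFP, 0 to 12 in BM CD44high against BM CD44low, 0 to 2 in CD44high against CD44low across organs, 5 to 9 in BM CD44high against MFP, 4 to 10 in lung CD44high against lung CD44low and 4 to 9 in lung lines against LN and BM lines.

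With means of per-cell values, 11 of 30 single-cell levels left their counting interval, so many of these levels depend on how cells are weighted. With all barcodes 1 of 30 did, and with the 2 other cell filters none. At other resolutions 7 of 120 cluster levels moved. Bulk values carry no depth, and 2 libraries a group limit every bulk test. The counts of pathway genes without 1 library have no share of all genes beside them. They show dependence on single libraries and are no result about the pathway.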

Other observations

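The genes around the ligand cluster on chromosome 5 were read for the same libraries. Besides *Epgn*, *Ereg*, *Areg* and *Btc*, the span held *Gm19610* with at most 0.56 TPM, *Gm19619* with at most 0.07 TPM and *Gm23092*, listed at 0. The 4 ligands of the span did not share one pattern. *Ereg* and *Epgn* were highest in MFP and near 0 in LN and BM, while *Areg*, between *Ereg* and *Btc*, was at 16.63 TPM or more in all LN and BM libraries.

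In the lung CD44low lines *Areg* was at 0.21 and 0.17 TPM in bulk, while the lungL single-cell library held 160 *Areg* counts, 143 of them in the 38 cells of the cluster shared with lungH. *Dcn*, at 4091 and 4315 TPM in bulk lung CD44low lines, had 22 counts in lungL.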
